A study of Rattus norvegicus with 12 samples.

Results

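Isolated hepatocytes of female and male rats were compared after exposure to the synthetic glucocorticoid dexamethasone. The comparison rests on 6 of the 12 arrays of the series, chosen by their titles: 3 arrays of female hepatocytes and 3 of male hepatocytes, all given dexamethasone at 100 nM for 6 hours. The other 6 arrays, 3 per sex, had the vehicle (0.01% ethanol) for 6 hours and are used here for reference. The cells came from Sprague-Dawley rats aged 11 weeks, were freed by collagenase perfusion, plated on collagen in medium with serum, and moved to medium without serum before treatment. RNA was labelled with Cy3 and hybridised to 1-colour Agilent rat arrays with probes of 60 bases. The sex of each array was taken from its title, because another label field gives male for all 12 arrays. Nothing in the labels says that replicates are separate animals, so p-values measure the spread between these arrays, which may be technical. The dose is written with the unit nm in the labels and is read here as nM.

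The rat liver is among the tissues with the strongest sex differences in gene expression. The adult male pituitary releases growth hormone in pulses and the female pituitary releases it more evenly, and the liver reads this pattern through the growth hormone receptor, the kinase JAK2 and the transcription factor STAT5b. Male-typical products include the alpha-2u-globulins, lipocalins that carry pheromones into urine, and the steroid hydroxylases Cyp2c11, Cyp2c13 and Cyp3a2. Female-typical products include the steroid sulfate 15-beta-hydroxylase Cyp2c12, hydroxysteroid sulfotransferases of the Sult2a family, the prolactin receptor and the plasma protein A1bg. Factors named as helpers of the female pattern include HNF6, encoded by Onecut1, and Cux2. Cultured hepatocytes no longer receive the pituitary signal, and glucocorticoids are a usual part of what maintains them.

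The sequences that read the extreme male genes show how closely related these transcripts are. The probes for Obp3 (chr5:78095776-78095835) and Mup4 (chr5:78223032-78223091), both alpha-2u-globulins, have the same base at 53 of 60 positions, and capitals mark the 7 positions that differ. The probes for Mup5 (chr5:78473338-78473397) and Mup4l1 (chr5:78712476-78712535) have the same base at 16 of 60 positions, and their place in the transcripts was not determined. Coordinates of probes are those of the array files, on build rn3, for which no exon annotation was used. The family has many near-identical copies, so the signal of each probe may come from more than 1 of them.
Obp3 probe: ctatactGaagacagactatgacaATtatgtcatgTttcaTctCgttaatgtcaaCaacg
Mup4 probe: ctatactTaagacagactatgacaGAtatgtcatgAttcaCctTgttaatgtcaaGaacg
Mup5 probe: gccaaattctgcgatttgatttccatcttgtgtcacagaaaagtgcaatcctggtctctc
Mup4l1 probe: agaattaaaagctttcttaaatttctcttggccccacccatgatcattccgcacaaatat

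On the female side, the probes shown are those of Xist, the RNA that coats the inactive X chromosome (chrX:91523230-91523289), and of Sult2a2 (chr1:74616270-74616329). They are shown because these genes carry some of the largest female excesses below. For the Cyp2c enzymes, whose members go both ways, the probe of the male-typical Cyp2c13 follows.
Xist probe: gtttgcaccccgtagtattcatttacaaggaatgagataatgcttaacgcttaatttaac
Sult2a2 probe: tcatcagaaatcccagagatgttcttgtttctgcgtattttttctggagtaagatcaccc
Cyp2c13 probe: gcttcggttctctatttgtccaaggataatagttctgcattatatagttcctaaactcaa

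Levels are given as the log2 of the processed signal minus the 75th percentile of the same array, so 0 is that percentile, and differences are female minus male on this scale. On the 6 arrays, between 66.5% and 80.4% of probes were well above background. Male replicate 1 was the lowest of these and also had the widest scatter between repeated spots, with a median coefficient of variation of 21.2% against 9.95% to 13% on the other 5. Correlation across genes was at least 0.99 between female replicates, at least 0.978 between male replicates and 0.972 to 0.979 between the sexes. The 3 female arrays were on a single slide, and the male arrays were on another 2 slides (replicate 1 on the first, replicates 2 and 3 on the second). No slide held both sexes under dexamethasone, so slide and sex cannot be told apart on these 6 arrays. Albumin, the main plasma protein of hepatocytes, checks the labelled cell type and stood at 7.54, 7.43 and 7.55 on the female arrays and at 7.85, 7.59 and 7.55 on the male arrays. Xist, which checks the titles, was high on the 3 female arrays and low on the 3 male arrays.

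**Figure D1:**
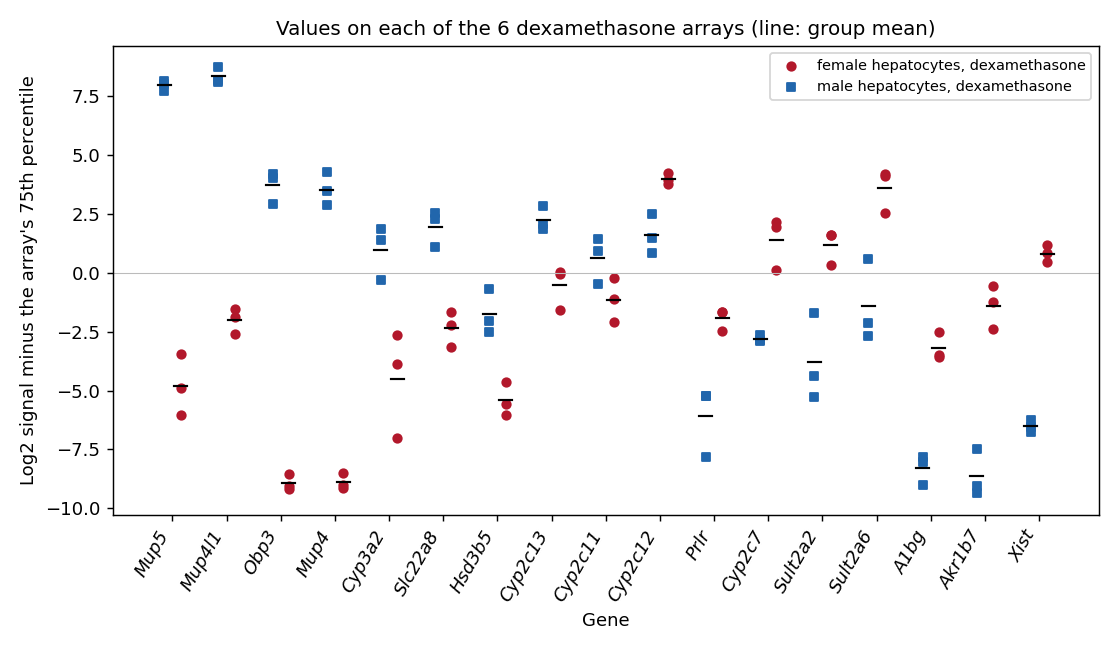
Level of 17 genes on each of the 6 dexamethasone arrays, as log2 signal minus the array's 75th percentile (y axis), with the gene on the x axis. Circles are female arrays, squares are male arrays and lines are group means; levels are to be read between the sexes within a gene, not between genes. Of the genes drawn, Cyp2c11 alone has overlapping groups.

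Of 25315 genes with a probe well above background on the 3 arrays of at least 1 sex, 1237 (4.89%) differed between the sexes at an adjusted p under 0.05 (limma, Benjamini-Hochberg over all genes tested). Female hepatocytes were higher for 512 (2.02%) and male hepatocytes for 725 (2.86%), and 757 (2.99%) differed by at least 2-fold. The median difference over all genes was 0.02. The female and male arrays did not overlap for 8337 genes (32.9%), so a lack of overlap is common here and says little of a single gene. Genes with a symbol made up 62.9% of those higher in females, 25.9% of those higher in males and 48.6% of all genes tested. Much of the male excess was thus in probes for unnamed transcripts.

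The number of genes called depended strongly on single arrays and on the slides. Leaving out female replicate 1, 2 or 3 left 237, 26 or 192 genes called, and leaving out male replicate 3 left 36; without male replicate 1 or 2 there were 899 or 1103. With slide as a random block 112 genes were called, and with all 12 arrays and slide as a fixed block 19. The genes called in all 6 fits that left out 1 array numbered 16, and all 16 were also called with slide as a random block. Among those with a symbol, A1bg, Pdgfrb and Xist were higher in females, and Acsm3, Mup4, Mup4l1, Mup4l3, Mup4l4, Mup5 and Obp3 were higher in males. With slide as a fixed block, 13 of the 16 were still called; A1bg, Mup4l4 and Pdgfrb were not, with adjusted p of 0.133, 0.0736 and 0.0553. These genes were singled out after their values were seen. Of the 83 named genes below that were called, 10 stayed called without female replicate 2 and 10 without male replicate 3, and every call outside the 16 was lost when at least 1 array was left out.

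**Figure D2:**
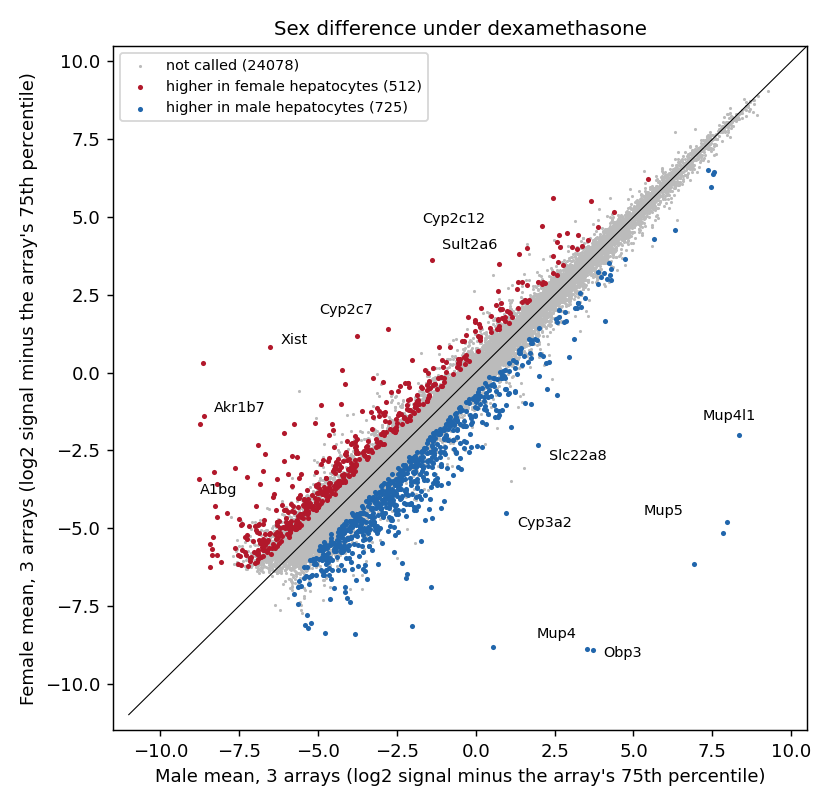
Mean level of each of the 25315 genes in male hepatocytes (x axis, 3 arrays) against female hepatocytes (y axis, 3 arrays), both as log2 signal minus the array's 75th percentile. Red points are the 512 genes higher in females, blue points the 725 higher in males and grey points were not called; the alpha-2u-globulins lie far from the diagonal at the lower right.

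The alpha-2u-globulins showed the widest sex difference of any group. Mup5 stood at 8.15, 7.70 and 8.02 on the male arrays and at -3.45, -6.05 and -4.91 on the female arrays. The difference of -12.76 (SE 0.61, adjusted p = 0.000711) corresponds to 6921-fold. The 5 probes named Mup5 gave -13.87 to -11.37. They are spread from position 78473338 to 78986251 of chromosome 5 and may read more than 1 gene. The probe at -13.87 was above background on no female array and the probe at -13.18 on 1, so these values are near the floor. Mup4l1 was at 8.73, 8.11 and 8.18 in males and at -1.55, -2.59 and -1.86 in females, a difference of -10.34 (SE 0.31, adjusted p = 8.53e-05). For Obp3 the male arrays read 4.02, 2.93 and 4.19, and no female array was well above background. The male level was at least 1389-fold higher, a bound set against the lowest signal well above background on the female arrays (adjusted p = 8.53e-05). With another background correction, the normexp method, the difference was -7.87, so the bound holds only for the processed signal. Mup4 behaved alike, at 2.89, 3.46 and 4.27 in males and not well above background on any female array, at least 1229-fold higher (adjusted p = 8.53e-05). Under normexp the difference of Mup4 was -7.69. All 3 male arrays were thus high for these 4 genes and all 3 female arrays low or at background, with no overlap. All 4 kept their call in the fit with slide as a fixed block.

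Mup4l1, Mup4l3 and Mup4l4 were called higher in males (-10.34, -13.04 and -13.00) but are not in the lipocalin list used here. Among the 11 lipocalins of that list, 4 were higher in males and none in females: Mup4, Mup5, Obp3 and Ptgds, a prostaglandin D synthase of the same fold. Ptgds was higher in males by 2.32 on the log2 scale, with a difference of -2.32 (adjusted p = 0.0473); it lost its call with slide as a random block and with the replicate number as a block (adjusted p = 0.0787). The other 7, which include Lcn2, Rbp4, Apom, Apod, Orm1 and Ambp, were not called; they lay between -1.53 and -0.14. The list's median was -0.85, against 0.02 over all genes. Over 31 genes of a list of male-biased liver genes, 8 were higher in males (25.8%, against 2.86% of all genes), none was higher in females, and the median was -1.53. The 8 were Cyp2c13, Cyp3a2, Hsd3b5, Mup4, Mup5, Nox4, Obp3 and Ust5r. The count fell to 3 with slide as a random block or as a fixed block, to 4 without female replicate 1 or 3, and to 3 without female replicate 2 or male replicate 3; the 3 were the lipocalins in the slide fits.

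The Cyp2c enzymes, cytochromes P450 that hydroxylate steroids and drugs, were called in both directions, 3 of 8 higher in females and 1 in males. Cyp2c12 was at 3.79, 4.22 and 3.94 in females and at 1.50, 0.86 and 2.52 in males, a difference of 2.36 (SE 0.40, adjusted p = 0.0324; 0.054 with the replicate number as a block). Cyp2c7, a retinoic acid hydroxylase, read 0.11, 1.96 and 2.16 in females and -2.90, -2.84 and -2.64 in males. Its difference was 4.20 (SE 0.52, adjusted p = 0.0176), and its 4 probes gave 3.11 to 4.42. Cyp2c6v1, at 5.00, 5.91 and 5.66 in females and 2.98, 4.31 and 3.64 in males, was higher in females by 1.88 (adjusted p = 0.0468). Cyp2c13 was the male counterpart, at 2.08, 1.85 and 2.85 in males and -1.58, -0.03 and 0.06 in females, a difference of -2.78 (SE 0.49, adjusted p = 0.0347). Cyp2c11, the main male testosterone hydroxylase, stood at 0.94, -0.49 and 1.42 in males and at -2.09, -1.12 and -0.23 in females. Its groups overlapped and its difference of -1.77 (SE 0.62) was not called (adjusted p = 0.146). None of the 8 was called with slide as a block or without female replicate 2 or 3, and 1 was called without male replicate 1, male replicate 3 or female replicate 1.

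Cyp3a2, a steroid 6-beta-hydroxylase, had the largest male excess among the cytochromes. It was at -0.32, 1.38 and 1.85 in males and at -7.02, -2.62 and -3.88 in females, a difference of -5.48 (SE 1.15, adjusted p = 0.0497), with 2 of 3 female arrays above background. Its relative Cyp3a18 read -0.95, 1.79 and 0.06 in males and -2.90, -1.97 and -2.0 in females. It missed the threshold (-2.59, adjusted p = 0.0793) and passed it with the replicate number as a block (adjusted p = 0.049). Cyp2d3 was higher in males, at 0.73, -0.01 and -0.12 against -2.55, -2.07 and -2.54 in females (difference -2.58, adjusted p = 0.0132). Cyp4f5, of a family that hydroxylates leukotrienes and fatty acids, was also higher in males (-1.39, adjusted p = 0.0132). Cyp2a2, a male-typical testosterone hydroxylase, and Cyp2a1, its female-typical relative, were not called, with differences of -0.66 (adjusted p = 0.0565) and -0.27 (adjusted p = 0.748).

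On the female side, Cyp26a1, which clears retinoic acid, stood at 4.87, 6.21 and 5.76 against 2.16, 2.52 and 2.69 in males. Its difference was 3.16 (SE 0.35, adjusted p = 0.0146). Cyp1b1 was above background on the 3 female arrays and on no male array, at least 3.32-fold higher (adjusted p = 0.0146), but its difference turned to -0.03 with another background correction, the normexp method. Cyp2r1, a vitamin D 25-hydroxylase, Cyp2w1 and Cyp4b1 were higher in females by 0.82, 0.68 and 1.50 (adjusted p = 0.0268, 0.0445 and 0.0418), but none of the 3 was called under normexp (0.23, 0.07 and 0.15) or with the replicate block. Of 42 cytochromes of a list outside the Cyp2c family, which does not hold Cyp26a1, 4 were higher in females and 4 in males. Under normexp these counts were 1 and 6, with slide as a random block 1 and 2, and with slide as a fixed block, without female replicate 2 or without male replicate 3 they were 0 and 0.

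Hydroxysteroid sulfotransferases, which add sulfate to steroids and bile acids, were higher in females. Sult2a6 read 2.53, 4.20 and 4.13 in females and -2.67, 0.58 and -2.12 in males, a difference of 5.02 (SE 0.90, adjusted p = 0.0362). Sult2a2 read 0.31, 1.59 and 1.61 in females and -5.25, -1.68 and -4.38 in males, a difference of 4.94 (SE 0.91, adjusted p = 0.0383). In both genes male replicate 2 was well above the other 2 male arrays, yet below every female array. The 3 probes of Sult2a2 gave 1.62 to 5.45. The probe at 1.62 was not called (limma, adjusted p = 0.445 over all probes), and its female and male arrays overlapped. Sult2a1 was at -4.14, -3.35 and -4.24 in females and at -6.05, -6.82 and -6.29 in males (2.47, adjusted p = 0.0172), and was not called under normexp (0.52). Sult1d1, which sulfates catechols, went the other way and was above background on no female array, at least 3.88-fold higher in males (adjusted p = 0.0293). Under normexp the difference of Sult1d1 was -1.08. Of 26 sulfotransferases and glucuronosyltransferases tested, 3 were higher in females and 1 in males, and none was called with slide as a block, without female replicate 2 or without male replicate 3; without female replicate 1 or 3 or male replicate 1 there was 1. The estrogen sulfotransferase Sult1e1 was on the array but not well above background on all arrays of either sex.

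Other female-typical liver genes included A1bg, at -3.50, -3.58 and -2.51 in females. It was above background on no male array, at least 10.9-fold higher in females (adjusted p = 0.011), and its difference was 1.07 under normexp. Prlr, the prolactin receptor, stood at -1.65, -2.45 and -1.68 in females and at -7.80, -5.25 and -5.23 in males, a difference of 4.16 (SE 0.71, adjusted p = 0.0318; 0.0531 with the replicate block). For Prlr, male replicate 1 lay below the lowest signal well above background on that array (-5.74), and the difference was 1.84 under normexp. Akr1b7, an aldo-keto reductase, was at -2.39, -1.23 and -0.57 in females and above background on no male array, at least 37.9-fold higher (adjusted p = 0.011). Its smallest difference over the alternative fits was 2.57. Srd5a1, the steroid 5-alpha-reductase, was higher in females by 1.16 (SE 0.12, adjusted p = 0.0133).

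Over 37 genes of a list of female-biased liver genes, 10 were higher in females, against 2.02% of all genes, and 2 were higher in males; the median was 0.36. The 10 were A1bg, Cyp2c12, Cyp2c7, Onecut1, Prlr, Prom1, Srd5a1, Sult2a1, Sult2a2 and Sult2a6. The 2 that went against the list were Acsm3, a medium-chain acyl-CoA synthetase, at -2.16, -1.69 and -2.72 in males against -6.80, -6.47 and -6.15 in females (-4.28, SE 0.30, adjusted p = 0.0058), and Stac3 (-1.58, adjusted p = 0.0197). For Acsm3, female replicate 1 lay below the lowest signal well above background on that array (-6.32), and the difference was -2.06 under normexp. With slide as a random block the list had 2 genes higher in females and 1 in males, and with slide as a fixed block 0 and 1. Without female replicate 1, 2 or 3 there were 4, 1 and 2 genes higher in females, and without male replicate 1 or 3 there were 6 and 2.

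Among the regulators through which the liver reads growth hormone, 2 of 33 tested were called (6.06%, against 4.89% of all genes), Prlr and Onecut1, both higher in females, and the list's median was 0.10. With the replicate number as a block neither was called (adjusted p = 0.0531 and 0.0658), while Igfbp2 was called higher in females and Ptpn11 in males. Onecut1, which encodes HNF6, read 4.16, 3.97 and 4.13 in females and 3.31, 3.30 and 3.53 in males (0.71, SE 0.13, adjusted p = 0.041). Ghr, the growth hormone receptor, was not called, at 1.36, 1.30 and 0.90 in females and 0.67, 0.69 and 0.46 in males (0.58, adjusted p = 0.0984). The dimmer probes of Ghr differed by 0.34 and 0.59 (limma, adjusted p = 0.266 and 0.0496 over all probes), so the last of them passed the threshold. Stat5a, Stat5b and Bcl6, a repressor of female-typical genes, were not called either, with differences of -0.19, 0.42 and -0.12 (adjusted p = 0.377, 0.107 and 0.77). The 2 probes of Cux2 disagreed. The brighter one, used for the gene, differed by 0.10 (adjusted p = 0.677), while the other, above background on the 3 female arrays and on 1 male array, read -3.65, -3.37 and -2.45 in females and -7.92, -7.34 and -5.77 in males (adjusted p = 0.0253 over all probes), so most of the male values only bound its level. The estrogen receptor gene Esr1 was on the array but was not well above background on all arrays of either sex. None of the 33 genes was called with slide as a block or without any 1 of female replicates 1, 2 and 3 or male replicate 3.

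Promoters from RefSeq (build GRCr8, 250 bases before to 50 after the start) were matched for 89 of the 108 named genes. They were searched on both strands for the STAT5 motif TTCNNNGAA and for the HNF6 motif TATTGAT. Among the sex-typed liver genes, A1bg held both motifs (chr7:94387447-94387746, minus strand), with the STAT5 match starting 69 bases and the HNF6 match 136 bases before the start. Cyp2c12 held the HNF6 motif 72 bases before the start (chr1:248676985-248677284, minus strand), and the male-typical Cyp2c13 held it as well, 61 bases before. Mup4l1 held the STAT5 motif 214 bases before the start (chr5:80226485-80226784, minus strand). The first 2 of these promoters are printed as examples of female-typical genes with an HNF6 match, the third as the male-typical one with a STAT5 match; capitals mark the motifs.
A1bg promoter: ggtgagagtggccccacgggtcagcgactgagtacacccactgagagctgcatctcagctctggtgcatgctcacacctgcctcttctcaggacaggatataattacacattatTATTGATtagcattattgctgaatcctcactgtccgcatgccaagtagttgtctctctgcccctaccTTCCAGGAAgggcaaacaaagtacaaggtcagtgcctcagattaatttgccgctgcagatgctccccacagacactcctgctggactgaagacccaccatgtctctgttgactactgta
Cyp2c12 promoter: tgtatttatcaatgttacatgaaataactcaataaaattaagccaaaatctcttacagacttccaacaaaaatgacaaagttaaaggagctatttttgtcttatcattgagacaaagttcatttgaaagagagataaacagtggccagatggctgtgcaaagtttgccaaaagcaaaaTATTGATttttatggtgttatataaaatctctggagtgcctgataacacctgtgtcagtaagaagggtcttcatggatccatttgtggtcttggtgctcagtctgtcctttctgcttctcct
Mup4l1 promoter: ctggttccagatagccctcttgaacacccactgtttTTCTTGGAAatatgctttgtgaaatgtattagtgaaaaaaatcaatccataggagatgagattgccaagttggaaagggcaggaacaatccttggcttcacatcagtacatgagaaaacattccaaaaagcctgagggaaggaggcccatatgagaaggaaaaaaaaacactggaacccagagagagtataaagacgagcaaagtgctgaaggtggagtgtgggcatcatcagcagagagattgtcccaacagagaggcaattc

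The STAT5 motif was in 8.68% of all 27457 promoters, 7.11% of those of genes tested, 7.09% of those of genes higher in females and 6% of those of genes higher in males. The HNF6 motif was in 2.16% of all promoters, 1.12% of those of genes tested, 2.76% of those higher in females (7 of 254) and 2% of those higher in males (3 of 150). These are letter matches within a short window, given as a description.

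Uptake and efflux proteins were called in both directions. Slc22a8, an organic anion transporter, stood at 2.54, 1.08 and 2.27 in males and at -2.22, -1.66 and -3.16 in females, a difference of -4.31 (SE 0.50, adjusted p = 0.016). Ust5r, of the same transporter family, was higher in males (-3.04, adjusted p = 0.0172). Slc26a1, a sulfate anion transporter, was higher in males as well (-2.49, adjusted p = 0.0146). The efflux pump Abcc5 was higher in females (0.99, adjusted p = 0.0253). In the list of 34 transporters, 1 was higher in females and 3 in males; none was called with slide as a block, without female replicate 2 or without male replicate 3, and 2, both higher in males, without female replicate 1 or 3.

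In the lists of steroid and fuel metabolism and of plasma proteins, 0% to 8.33% of genes were called, against 4.89% of all genes. Hsd3b5, a 3-ketosteroid reductase of male liver, was at -2.53, -0.67 and -2.05 in males and at -6.04, -5.57 and -4.62 in females (-3.66, SE 0.55, adjusted p = 0.0254). Hsd3b1 was higher in males too (-1.90, adjusted p = 0.0437; 0.0509 with the replicate block). In the list of 36 genes of steroid handling, 8.33% were called. Of 58 genes of fatty acid oxidation, 3 were higher in males, Acat1, Acsm3 and Vnn1 (-0.71, -4.28 and -1.33), and none in females, with a median of -0.25. This is 5.17% of the list, and Acat1 lost its call with the replicate block (adjusted p = 0.0614). The dimmer probe of Acat1 gave -0.46 and was not called (limma, adjusted p = 0.106 over all probes). Of 47 genes that make glucose or break down amino acids, Hal, the histidase, was higher in females (1.64, adjusted p = 0.0468) and Pc, pyruvate carboxylase, higher in males (-1.15, adjusted p = 0.029), which is 4.26% of the list. Of 61 lipid synthesis and lipoprotein genes, 1 was called, Apoa4, at 7.79, 7.07 and 7.66 in males and 6.29, 6.34 and 6.51 in females (-1.13, adjusted p = 0.0396; 0.0572 with the replicate block). Of 22 bile acid genes and 44 glutathione and Nrf2 target genes, limma called none, although 2 and 10 had an unadjusted p under 0.05. The lowest p in these lists belonged to Slc27a5, the bile acid-CoA ligase (-1.72, adjusted p = 0.103), and to Akr7a3, an aflatoxin aldehyde reductase (-1.51, adjusted p = 0.0718; 0.038 with the replicate number as a block). Of 66 acute phase and complement genes, Cfb and Spin2a were higher in males (-1.10 and -2.45). The 3 probes of the Spin2a transcript on chromosome 6 gave -2.67 to -2.45; another probe under that symbol, for a transcript placed on chromosome X of build rn3, is not counted with them. Carbonic anhydrase 3, Car3, known as male-typical in rat liver, was not called (-2.16, adjusted p = 0.207), with male replicate 2 at -0.71 within the female range of -1.26 to 0.21. Without female replicate 2 or male replicate 3, and with slide as a fixed block, Acsm3 was the only gene of these lists still called.

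The genes that dexamethasone itself is known to induce were called about as often as genes at large. Of 40 tested, 2 were called, which is 5% against 4.89% of all genes, and the median was -0.05. Tat, tyrosine aminotransferase, the classic glucocorticoid-induced liver enzyme, stood at 4.27, 4.37 and 4.40 in females and 4.11, 4.77 and 4.15 in males, a difference of 0.00 (SE 0.20, adjusted p = 0.994). Fkbp5, which tempers the receptor, read 3.09, 3.17 and 3.03 in females and 3.75, 4.24 and 3.54 in males; its arrays did not overlap, but the difference of -0.75 was not called (adjusted p = 0.0821). Tsc22d3, encoding GILZ, and the receptor gene Nr3c1 were not called, with differences of -0.36 and 0.18 (adjusted p = 0.306 and 0.747). The 2 that were called were higher in females: Dusp1, a phosphatase that switches off MAP kinases, at 4.76, 4.64 and 4.65 against 3.71, 3.70 and 4.17 (0.82, adjusted p = 0.0466), and Rgs2, a brake on G proteins, at -1.93, -1.76 and -2.08 against -2.72, -2.86 and -3.25 (1.02, adjusted p = 0.0353). Dusp1 lost its call with the replicate block (adjusted p = 0.0744) and Rgs2 under normexp (adjusted p = 0.0506), and neither was called with slide as a block, or without female replicate 1, 2 or 3 or male replicate 3. These comparisons are between sexes at 1 dose and time and do not measure induction.

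Cytokine and chemokine genes were called in both directions. Of 56 inflammation genes, 6 were higher in females and 3 in males, against 2.02% and 2.86% of all genes, and the median was 0.39; with the replicate number as a block the counts were 5 and 4, and with normexp background correction 6 and 4. Il33, an alarmin cytokine, read 3.81, 5.00 and 5.30 in females and 1.57, 2.53 and 2.22 in males (2.60, SE 0.43, adjusted p = 0.0305). The dimmer probe of Il33 gave 2.34 and was not called (limma, adjusted p = 0.0704 over all probes). Cxcl10, an interferon-induced T cell attractant, read -1.19, -1.51 and -1.59 in females and -3.19, -3.23 and -3.41 in males (1.85, SE 0.15, adjusted p = 0.011). Cxcl12, Cxcl14, Cxcl6 and the decoy receptor Il1r2 were higher in females as well (1.97, 1.68, 3.91 and 0.73), but Cxcl6 and Il1r2 lost their call with the replicate block (adjusted p = 0.0889 and 0.0777) and Cxcl6 also under normexp. On the male side, Ccl2, the monocyte attractant, was at 4.17, 4.26 and 4.44 against 2.65, 3.14 and 3.13 in females (-1.32, adjusted p = 0.0206), beside Csf2 (-1.83) and Il6r (-1.12). Of 54 interferon and antigen presentation genes, Ifi47, Irf9, Mx1 and Oasl were higher in females (1.90, 0.60, 1.45 and 1.39) and Isg20 in males (-0.88); the difference of Mx1 turned to -0.03 under normexp, where Oasl was not called (0.58), and Irf9 lost its call with the replicate block (adjusted p = 0.0779). With slide as a random block 2 inflammation genes and no interferon gene were called, and without female replicate 2 or male replicate 3 none of either. The Kupffer, endothelial and lymphocyte markers described next were also higher on average in females, and their part in these differences was not tested.

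Markers of the other cells of the liver mostly had the higher mean in the female cultures. In bulk RNA, fewer cells of a type and less RNA per cell cannot be told apart. A gene entered if above background on the 3 arrays of at least 1 sex, which can tilt counts and means toward that sex. Above background on all 6 arrays were 14 of 17 stellate, 11 of 14 endothelial and 8 of 11 lymphocyte genes. The rest of these lists entered through the female arrays, so the filter itself favours a higher female mean there. The list of 17 stellate cell and fibroblast genes had 4 higher in females (23.5%, against 2.02% of all genes), none higher in males, and 14 of 17 with the higher mean in females. Pdgfrb, the receptor for PDGF on these cells, stood at -3.05, -2.64 and -2.34 in females and at -5.98, -5.56 and -5.94 in males (3.15, SE 0.22, adjusted p = 0.0058). For Pdgfrb, male replicate 1 lay below the lowest signal well above background on that array (-5.74), and the difference was 1.05 under normexp. Lrat, which stores retinol as ester, read -2.37, -1.30 and -1.33 in females and -5.03, -4.22 and -4.45 in males (2.90, adjusted p = 0.0172). Bgn and Vim were the other 2 (1.92 and 0.74; Vim lost its call with the replicate block, adjusted p = 0.0602), while the collagen gene Col1a1 and Timp1 differed by -0.07 and 0.06. The summed linear signal of the list, relative to the 75th percentile, was 191 to 261 on the female arrays and 136 to 230 on the male arrays, which overlap, and its mean log2 level was -0.46 to -0.05 against -1.34 to -0.98, which do not. With slide as a random block 2 of the 4 were called, with slide as a fixed block none, and without female replicate 2 or male replicate 3, 1.

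Of 18 Kupffer cell and macrophage markers, 15 had the higher mean in females, 1 was called, the scavenger receptor Msr1 (1.53, adjusted p = 0.041), and the median was 0.78. Their summed signal was 76.4 to 156 in females and 66.6 to 133 in males, which overlap. Of 14 endothelial markers, 11 had the higher mean in females and limma called none, although 6 had an unadjusted p under 0.05; the smallest p was that of Ramp2 (1.23, adjusted p = 0.0789), and the median fell from 0.74 to 0.04 under normexp, with 8 of 14 then higher in females. All 11 lymphocyte markers had the higher mean in females, none was called (6 at an unadjusted p under 0.05), and their summed signal was low in both sexes, 1.43 to 2.52 against 1.07 to 1.53; their median was 0.91, and 0.33 under normexp. Of 17 cholangiocyte markers, 10 had the higher mean in females; Prom1 was called in that direction (2.04) and Epcam in the other (-0.83; not with the replicate block, adjusted p = 0.0628). Their median was 0.20, and -0.06 under normexp. Of 29 hepatocyte genes, 13 had the higher mean in females, 1 was called (Onecut1), the median was -0.10, and the summed signal was 1320 to 1480 in females and 1330 to 1660 in males. The globin Hbb-b1, a marker of red blood cells, was higher in males, at 2.00, 2.64 and 0.61 against -1.75, -0.57 and -0.75 (-2.77, adjusted p = 0.0467; 0.0602 with the replicate block). Whether other cell types bear on any of the differences above was not tested.

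**Figure D3:**
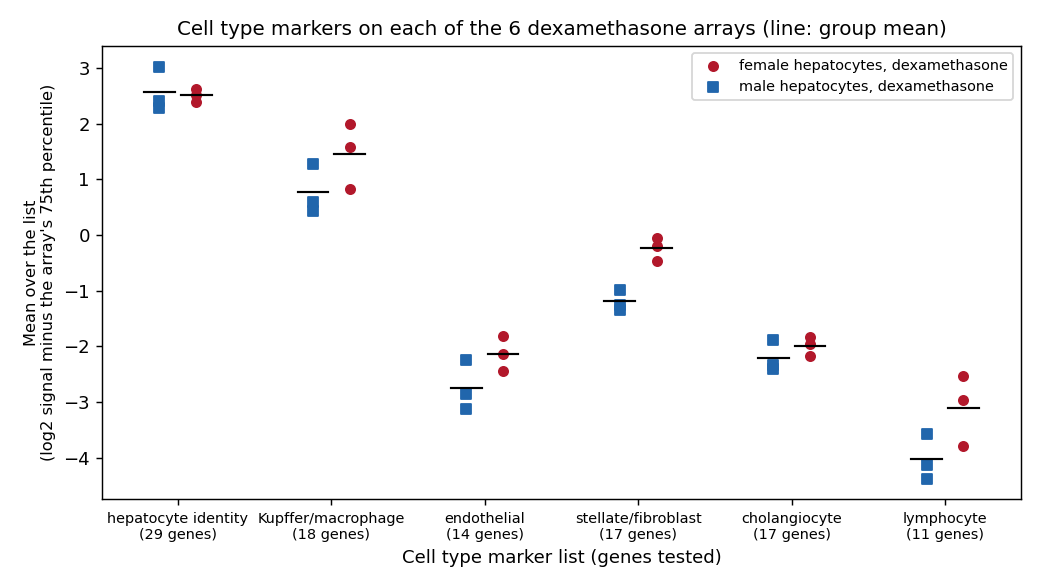
Mean level over the tested genes of 6 cell type marker lists (x axis) on each dexamethasone array, as log2 signal minus the array's 75th percentile (y axis); circles are female arrays, squares male arrays and lines group means. The stellate and fibroblast list separates the sexes, at -0.46 to -0.05 against -1.34 to -0.98, and the hepatocyte list does not. Of the 17 stellate and fibroblast genes, 14 were above background on all 6 arrays, and the rest entered through the female arrays.

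Of 57 cell cycle genes tested, 5 were higher in female hepatocytes, which is 8.77% against 2.02% of all genes, none was higher in males, and the median was 0.40. Cdk1, the mitotic kinase, read 0.12, 0.78 and 0.42 in females and -0.48, -0.43 and -0.56 in males (0.93, adjusted p = 0.0468). Cdkn3, Mcm3 and Mcm6, the last 2 subunits of the replicative helicase, and the kinesin Kif20a followed with 1.21, 1.02, 0.97 and 0.81. With the replicate number as a block all 5 lost their call, with adjusted p between 0.058 and 0.0704, and Ccnb1, a mitotic cyclin gene, was the single member called. None of the 5 was called with slide as a block, and no member without any of the 3 female arrays or without male replicate 3; 2 were called without male replicate 1 and 1 without male replicate 2.

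From the sex chromosomes, Xist read 1.16, 0.46 and 0.82 in females and -6.76, -6.26 and -6.56 in males, a difference of 7.34 (SE 0.22, adjusted p = 8.53e-05). Its value on male replicate 1 lay below the lowest signal well above background on that array (-5.74), and the difference was 4.51 under normexp. Eif2s3, a translation initiation factor gene known to escape X inactivation, was higher in females by 0.76 (adjusted p = 0.0458; 0.0594 with the replicate block), and its 3 probes gave 0.76 to 1.12. Ddx3x and Kdm5c, also escape genes in other species, were not called (0.06 and 0.34). Of 826 genes on the X chromosome of build rn3, 27 were higher in females (3.27%, against 2.02% of all genes) and 15 in males (1.82%, against 2.86%).

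The sex differences under dexamethasone were set beside those of the vehicle arrays, where 875 genes (3.46%) were called and 484 with the replicate number as a block. On the vehicle arrays 46% to 55.7% of probes were above background in males and 74.8% to 78.1% in females. Low genes are thus less well measured there in males. The male vehicle arrays were on the slide of male dexamethasone replicate 1. Female vehicle replicate 3 was on the slide of the female dexamethasone arrays. Female vehicle replicates 1 and 2 were on that of male dexamethasone replicates 2 and 3. Under vehicle, too, no slide held both sexes, so slide and sex cannot be told apart on those arrays. A direction shared with dexamethasone is therefore not free of slide effects. Of the 1237 genes called under dexamethasone, 334 were called in both, which is 27.0% of the one list and 38.2% of the other, and 331 of these had the same direction. By the sign of the difference alone, 1043 of the 1237 (84.3%) had the same direction in vehicle, against 66% of all genes tested. The vehicle differences were -13.60 for Mup5, -12.63 for Obp3, 6.43 for Xist, 5.65 for Sult2a6, 6.15 for Cyp2c7, 2.63 for Cyp2c12 and -3.23 for Cyp2c13. The 3 genes with opposite directions were Adamtsl2, Cdh23 and an unnamed transcript, CA509728, and none of the 3 was above background on any vehicle array. A test of the difference between the 2 sex differences called 43 genes (0.17%), 13 of them among the 1237, and no member of the 27 lists. With the replicate number as a block none was called by limma, although 4318 had an unadjusted p under 0.05. Among genes called under dexamethasone, Myzap was above background on the 3 female arrays and on no male array (at least 1.71-fold higher, adjusted p = 0.0133), with a vehicle difference of -0.49 (interaction 2.98, adjusted p = 0.0323); under normexp its difference with dexamethasone was 0.01 and not called.

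**Figure D4:**
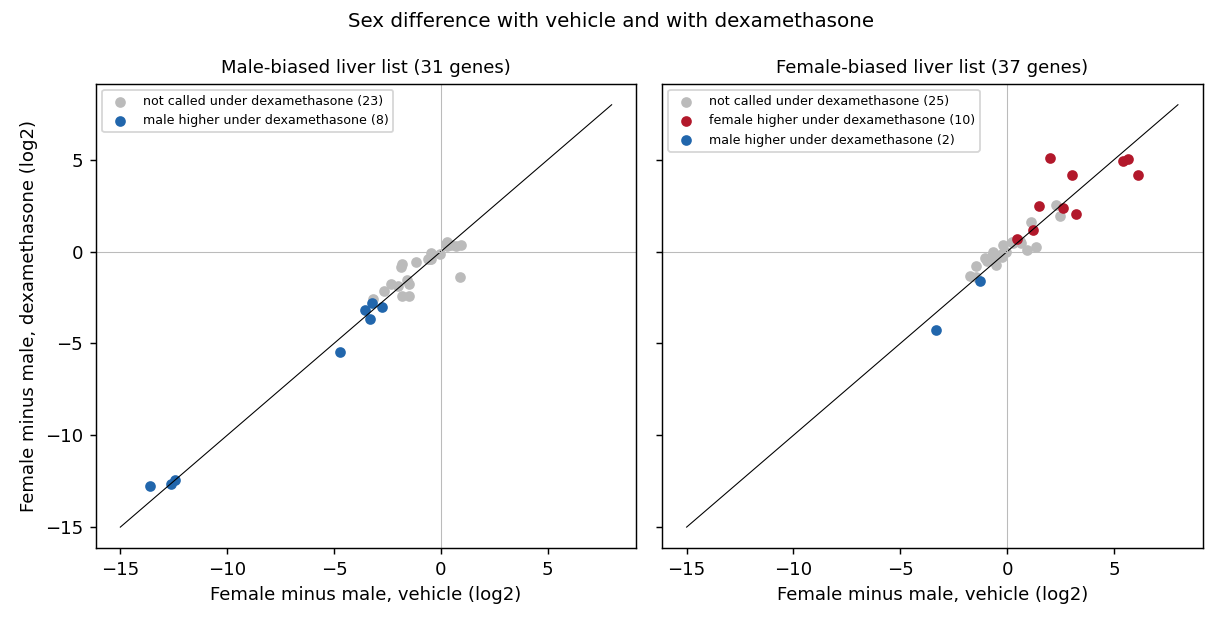
Difference between the sexes, female minus male on the log2 scale, with vehicle (x axis, 6 arrays) and with dexamethasone (y axis, 6 arrays) for the genes of the male-biased list (left, 31 genes) and the female-biased list (right, 37 genes). Colour marks the call under dexamethasone and the line marks equal differences; Mup5, Obp3 and Mup4 lie near it at the far lower left.

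Further genes with large differences fell outside the lists. Higher in females and above background on all 6 arrays were Mmp3, a matrix metalloproteinase, at -0.65, 0.05 and 0.05 against -3.13, -2.83 and -3.79 (3.07, adjusted p = 0.0132), Pou3f3 (2.96), Prss23 (2.78), Car4 (2.68) and Akap12 (2.62). Above background on no male array were Adra1d, an alpha-1 adrenergic receptor, at least 5.07-fold higher in females, Adamts1, at least 4.41-fold, and Plod2, at least 2.68-fold; under normexp none of the 3 was called (differences 0.36, 0.20 and 0.10). Higher in males were Notch1, at -1.25, -2.29 and -1.26 against -4.73, -4.81 and -4.64 (-3.13, adjusted p = 0.0124), Spmip11 (-3.12) and the carboxylesterase Ces1d (-2.53); the last 2 lost their call with the replicate block (adjusted p = 0.0643 and 0.0795). Above background on no female array were Hspb3, a small heat shock protein, at least 7.44-fold higher in males, and Nox4, a hydrogen peroxide-producing oxidase, at least 6.28-fold. Cgm4 was likewise at least 2.54-fold higher and was not called under normexp (-0.49). The difference of Nox4 was -0.98 under normexp, and that of Hspb3 was -1.33 at its smallest over the alternative fits. None of these further genes was among the 16 genes called in every fit that left out 1 array.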

How the data were processed

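RNA of isolated hepatocytes was read on 12 arrays, 3 per sex and treatment, and the 6 dexamethasone arrays were compared. The authors' deposited scanner files give the processed signal as an intensity, made with Agilent Feature Extraction 9.5.3.1 per the file headers (9.5 per the submitters' processing notes). The deposited value table held the same intensity for all 540216 values compared. From these, log2 signals were centred on the 75th percentile within each array after outlier spots were dropped. The 29618 probes kept passed the scanner's background flag on every array of the female or the male dexamethasone group. An at-least fold uses the lowest signal well above background and holds for the processed signal only. Of 41012 probes, 19916 were named through RefSeq and 21096 kept the file's name. A gene is read by its brightest kept probe (25315 genes, 3490 with several probes). Precision is limited by the 3 arrays per group.

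The sexes were compared in R 4.3.3 by limma (version 3.58.1, lmFit and eBayes), adjusting over all genes, with a threshold of 0.05; the vehicle arrays were fitted alike, and the interaction over 12 arrays. On simulated data over 25284 genes, this comparison recovered 54%, 94%, 98% and 100% of genes changed by 1, 2, 3 and 4 on the log2 scale. Of 185 genes called there, 12 had not been changed. The simulated noise was independent between arrays, without slide or replicate effects, so these rates do not describe data that have such effects. Samples of the same replicate number deviated together across the sexes (correlations 0.185, 0.195 and 0.231), so a fit with the replicate number as a block was run, beside other scalings, background corrections, filters, slide blocks and left-out arrays. Named genes (108) were the 12 largest differences in each direction among symbols above background on all 6 arrays, the 6 largest at-least folds in each direction, up to 3 passing members per direction of each of 27 lists (or the smallest p), 27 sex-typed or glucocorticoid genes and the 8 smallest p-values of the interaction; other list members are named by their calls. The members and lists were chosen with earlier results of these data known. Some named genes and probe sequences are not reported here.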

Additional observations from a re-analysis of the deposited data

Results flagged for a closer look

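For 8 of the 43 genes whose sex difference itself differed between dexamethasone and vehicle (limma interaction, 3 arrays per group), the values follow; they are those with the smallest p among genes with a symbol, a limit added to the naming rule after the values were seen, since other small p-values belong to unnamed transcripts. Reg3a, an antimicrobial lectin, had a sex difference of 0.59 with dexamethasone and -1.55 with vehicle, an interaction of 2.13 (SE 0.23, adjusted p = 0.0231). Zfp474 went from -1.35 with vehicle to 0.57 with dexamethasone (1.92, adjusted p = 0.0231). The kinase gene Vrk2 had 1.64 with vehicle and 0.08 with dexamethasone (-1.57, adjusted p = 0.0323), where the male vehicle mean of -2.19 stood below the other 3 group means of -0.54, -0.80 and -0.87. Cacng2, a calcium channel subunit gene, had -1.51 with vehicle and 0.08 with dexamethasone (1.59, adjusted p = 0.0406). The olfactory receptor gene Or52e5 had -0.83 and 0.53 (1.36, adjusted p = 0.0323). Myzap had -0.49 and 2.49 (2.98, adjusted p = 0.0323), Klk1b3 -2.55 and 0.90 (3.45, adjusted p = 0.0323), and Cdh23 -2.07 and 0.84 (2.91, adjusted p = 0.0406). Klk1b3 and Cdh23 were above background on no vehicle array, and Myzap and Or52e5 on no male vehicle array. None of the 8 interactions was called with the replicate number as a block or without any 1 of the 3 female dexamethasone arrays.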

How the results depend on the processing

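The 1237 genes called under dexamethasone became 145 with no filter on dim probes, 789 with the spread shared by all 12 arrays (668 of them among the 1237), 112 with slide as a random block and 19 with all 12 arrays and slide as a fixed block, of which 18 were among the 1237. Leaving out 1 array gave 26 to 1103. Samples of the same replicate number deviated together (correlations 0.185 to 0.231), which cannot show that they are matched. With the replicate block 882 genes were called under dexamethasone. Of the 83 named genes called, 20 lost their call under the block. With normexp 70 kept their call and direction, 10 lost the call, and a further 3 changed direction. With array medians, quantile normalization, normexp correction, the filter on all 6 arrays, probe means and a trended robust fit, the count was 1279, 1335, 1379, 1142, 1285 and 1089. Under normexp the share of called genes higher in females was 22.6% in place of 41.4%, and 3 named genes changed direction: Cyp1b1 (-0.03), Mx1 (-0.03) and Cdh23 (-0.17). In vehicle, 875 genes became 8168 under normexp, with 12.4% higher in females in place of 44.5% and a median difference over all genes of -0.35; with the replicate block there were 484, and leaving out 1 array gave 49 to 750. Under quantile normalization 62.9% of the vehicle calls were higher in females. For the interaction, 43 became 154 under quantile normalization, 0 under normexp, 7 with slide as a fixed block and 0 with the replicate block (by limma; 4384 and 4318 had an unadjusted p under 0.05 in the 2 fits that called 0), and leaving out 1 array gave 0 to 586. The share of interactions above 0 was 72.1%, and 14.9% under quantile normalization. The causes were not tested. Signal over background limits the low genes, most of all on male replicate 1.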
